A study of Mus musculus with 30 samples.

Results

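The structural genes of the sarcomere, the repeating contractile unit of striated muscle, were followed in the diaphragm of mice that model SBMA (spinal and bulbar muscular atrophy). In that disease an androgen receptor with an expanded glutamine repeat harms muscle and the motor neurons that supply it. The set holds 35 named genes of filament structure, Z-disc, M-band and sarcomere assembly other than myosins, troponins and tropomyosins, out of 33076 genes in the deposited count table. All 35 were found in the table and passed the filter on low counts in every fit. RNA-seq had been run on 15 male mice, with a piece that contains neuromuscular junctions (perisynaptic) and one free of them (extrasynaptic) cut from each diaphragm, which makes 30 libraries. SBMA animals carried the BACfxAR121 transgene, which the genotype label of these samples spells BACfxR121. Control animals carried BACfxAR121 together with HSA-Cre, a Cre recombinase driven by the promoter of human skeletal actin, and the series describes them as muscle-rescued littermates. The transgene is therefore present in both genotypes, and the comparison is between animals without and with Cre in muscle fibres, not between transgenic and wild-type mice. The younger cohort, 15 weeks old, held 4 SBMA and 3 control mice, and the older one, 26 weeks old, held 4 and 4, each mouse being 1 replicate.

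In the sarcomere, thin filaments of actin are anchored at the Z-disc by alpha-actinin and capped at their free end by tropomodulin, while thick filaments are held in register at the M-band by myomesins. Titin spans from Z-disc to M-band and nebulin runs along the thin filament, and small Z-disc proteins such as telethonin, myotilin and the myozenins link these filaments to each other and to signalling enzymes. Several members come as related genes with different use in fast and slow fibres of mouse muscle, among them the alpha-actinins, myozenins and myosin-binding proteins C.

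Every member was expressed, over a wide range of levels. Levels between genes are compared as CPM (read counts scaled to the size of the library) per kilobase of exon, with library sizes adjusted by TMM factors (trimmed mean of M-values). Acta1, the skeletal alpha-actin, had the highest level per kilobase, with group means of 8169 to 11449 in the SBMA groups and 16250.5 to 17241 in the control groups. Tcap, which encodes telethonin, came next at 1287 to 2552 in SBMA and 3691 to 4740.4 in control groups on the same scale. Mybpc1, Myot, Actn2 and Nrap followed, and Myoz3, Obsl1 and Mybph were the lowest. Mybph lay at 1.81 to 4.44 CPM per kilobase in SBMA and 1.85 to 4.17 in control groups. Together the 35 genes took 5.63% to 7.28% of the counts of the SBMA libraries and 6.24% to 7.90% of those of the control libraries. Skeletal actin led the set and cardiac actin ranked far below it, as the tissue label has it.

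Total counts per library ranged from 16280873 to 34694446. The regional labels were checked with Chrne, the adult acetylcholine receptor subunit of the junction, which averaged 19.1 ± 2.91 CPM in perisynaptic and 0.513 ± 0.806 CPM in extrasynaptic SBMA libraries at 26 weeks, and 24.6 ± 8.12 and 0.513 ± 0.169 CPM in control libraries of that age (SD, n = 4 each). Chrne is from a list of 8 junction genes, whose summed level differed with genotype in extrasynaptic libraries. At 26 weeks the sum was 216 to 259 CPM in SBMA and 59.5 to 104 CPM in control libraries of that region. At 15 weeks it was 140 to 174 CPM in SBMA and 66.1 to 85.9 CPM in control libraries. Perisynaptic sums at 26 weeks were 382 to 444 CPM in SBMA and 251 to 311 CPM in control animals. Libraries differed in how long and short transcripts were represented. A length index was therefore computed for each library, the median log2 deviation of 1132 genes with over 10000 exonic bases minus that of 991 genes with under 2000, members left out. It was lowest in control replicate 2 at 26 weeks, at -0.98 in its perisynaptic and -0.44 in its extrasynaptic library. In extrasynaptic libraries at 26 weeks it moved with genotype, at 0.21 to 0.30 in SBMA and -0.44 to 0.17 in control libraries. Extrasynaptic libraries of 15 weeks were separated too, at 0.16 to 0.19 in SBMA and -0.22 to 0.12 in control animals. In perisynaptic libraries at 26 weeks SBMA replicates 1 and 2 lay at -0.41 and -0.35. The calls at 26 weeks were therefore repeated with the index as a covariate and without the animals numbered 79 to 82, which are replicates 1 and 2 of both genotypes.

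The number of members that differed between SBMA and control muscle was largest at 26 weeks. Adjusted p-values come from the quasi-likelihood test of edgeR and are adjusted by Benjamini-Hochberg over all genes tested, a member is called at an adjusted p under 0.05, and fold changes are log2 values ± SE, SBMA over control. Of 35 members, 9 were called in perisynaptic muscle at 26 weeks, 2 higher and 7 lower, where 14% of all genes tested were called, 8.04% higher and 5.97% lower. In extrasynaptic muscle at that age 20 were called, 9 higher and 11 lower, against 32.2% of all genes, 16.1% in each direction. At 15 weeks the extrasynaptic comparison called 5 members, all lower, where 1.22% of all genes were called, 0.554% higher and 0.67% lower. The perisynaptic comparison called none at that age, where 0.21% of all genes were called, 0.127% higher and 0.0826% lower. In that comparison 7 members had an unadjusted p under 0.05, and DESeq2 called 4.

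The changes at 26 weeks went both ways within the set, and those at 15 weeks mostly downward. At 26 weeks the median of the 35 log2 fold changes was -0.06 in both regions, with medians of all genes of -0.02 in perisynaptic and -0.03 in extrasynaptic muscle. At 15 weeks it was -0.15 in perisynaptic and -0.17 in extrasynaptic muscle, with all genes at -0.01 in both. Levels of SBMA and control libraries did not overlap for 11 members in the perisynaptic comparison at 26 weeks, 3 higher and 8 lower, where this held for 18.6% of all genes. In the extrasynaptic comparison at that age the number was 15, 6 higher and 9 lower, where 30.1% of all genes did not overlap. At 15 weeks it was 9 in perisynaptic muscle, 1 higher and 8 lower, with 11.8% of all genes. In extrasynaptic muscle of that age it was 13, 1 higher and 12 lower, with 15.8% of all genes. In these whole pieces of muscle, fewer fibres of a kind and less RNA per fibre cannot be told apart.

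**Figure D1:**
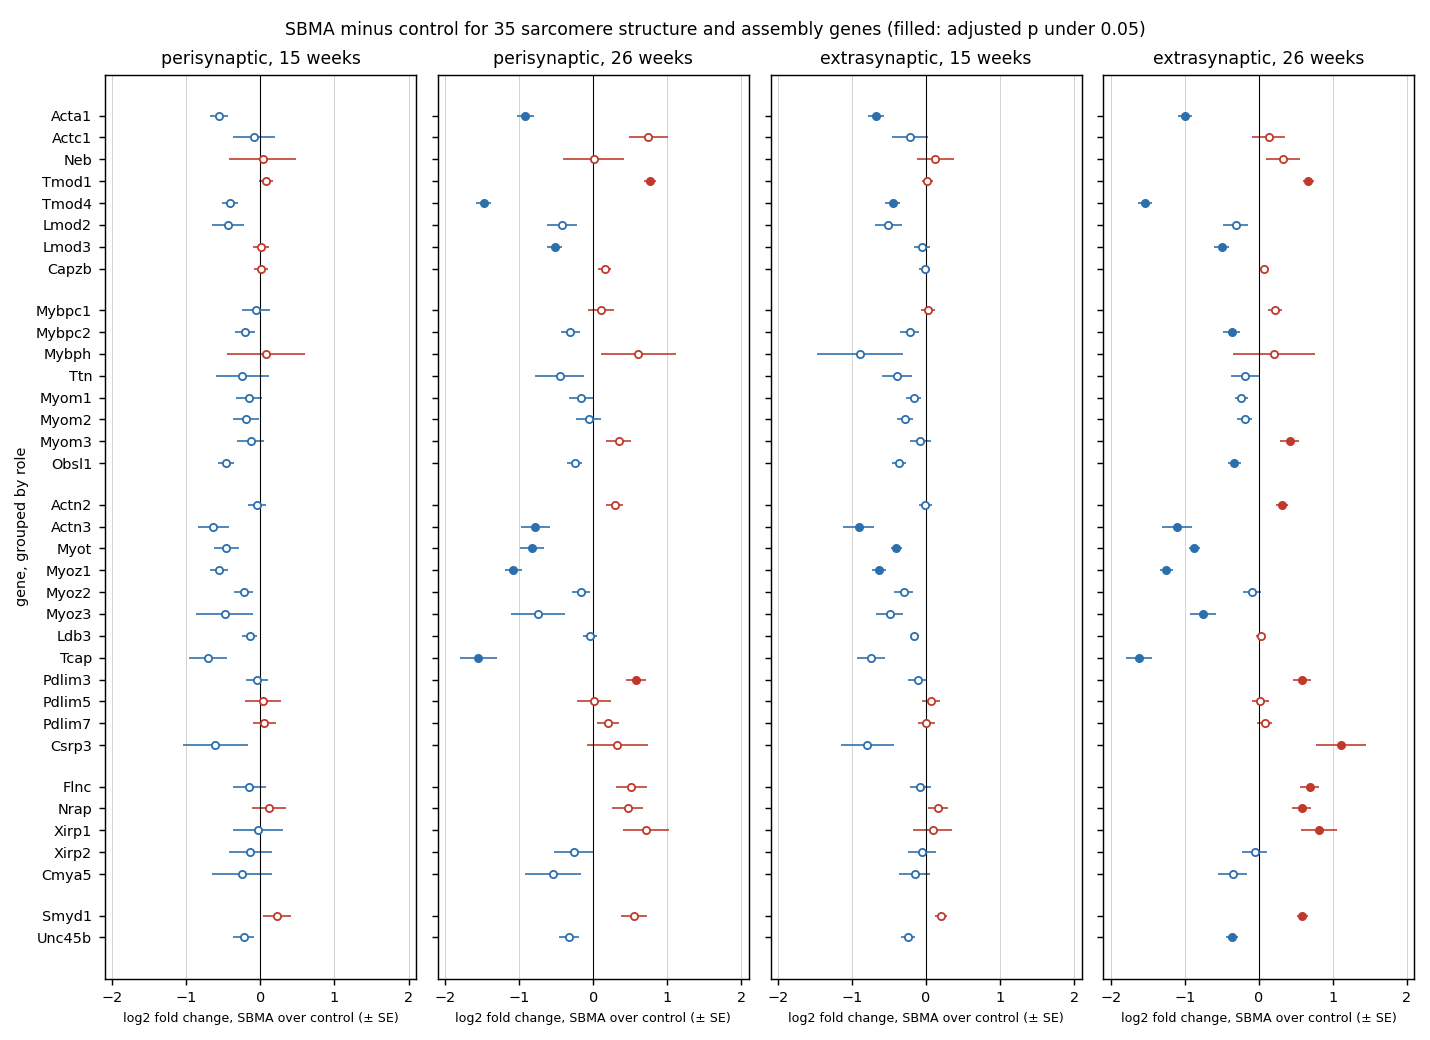
Log2 fold change of SBMA over control (x axis, ± SE) for each of the 35 genes (y axis, grouped from top to bottom as thin filament, thick filament and M-band, Z-disc, filamin and Xin, assembly factors) in the 4 comparisons. Filled points have an adjusted p under 0.05: 0 and 9 in perisynaptic muscle at 15 and 26 weeks, 5 and 20 in extrasynaptic muscle, with Tcap and Tmod4 farthest to the left at 26 weeks.

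Promoters are shown here for 5 members that were called in extrasynaptic muscle at 26 weeks, a pair that fell (Acta1 and Mybpc2) and 3 that rose (Smyd1, Myom3 and Nrap), so that the sequence next to the start can be set side by side for both directions. The calls of Mybpc2, Myom3 and Nrap were lost with the length index as a covariate. The 5 windows hold no annotated exon. Each is the 250 bases before the transcription start in RefSeq, build GRCm38.p6, printed on the strand of the gene. Acta1 lies at chr8:123894776-123895025, minus strand, Mybpc2 at chr7:44524670-44524919, minus strand, Smyd1 at chr6:71262282-71262531, minus strand, Myom3 at chr4:135759465-135759714, plus strand, and Nrap at chr19:56390039-56390288, minus strand. Capitals mark matches, on either strand, to the CArG box bound by serum response factor, the MEF2 site, the E-box CANNTG bound by myogenic factors and the M-CAT element CATTCC bound by TEAD factors.
Acta1: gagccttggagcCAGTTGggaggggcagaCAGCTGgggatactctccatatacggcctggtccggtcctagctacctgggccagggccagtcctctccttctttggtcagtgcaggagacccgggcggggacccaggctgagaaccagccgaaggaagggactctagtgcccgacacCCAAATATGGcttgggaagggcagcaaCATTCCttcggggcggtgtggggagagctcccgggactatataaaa
Mybpc2: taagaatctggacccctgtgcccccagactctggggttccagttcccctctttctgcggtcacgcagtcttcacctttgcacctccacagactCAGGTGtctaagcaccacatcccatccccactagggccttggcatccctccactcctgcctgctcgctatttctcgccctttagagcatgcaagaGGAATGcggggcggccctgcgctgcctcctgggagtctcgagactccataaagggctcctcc
Smyd1: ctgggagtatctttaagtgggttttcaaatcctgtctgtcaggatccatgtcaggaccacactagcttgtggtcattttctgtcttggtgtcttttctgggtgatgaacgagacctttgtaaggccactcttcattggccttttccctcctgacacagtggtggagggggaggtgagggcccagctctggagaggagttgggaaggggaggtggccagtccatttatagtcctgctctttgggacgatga
Myom3: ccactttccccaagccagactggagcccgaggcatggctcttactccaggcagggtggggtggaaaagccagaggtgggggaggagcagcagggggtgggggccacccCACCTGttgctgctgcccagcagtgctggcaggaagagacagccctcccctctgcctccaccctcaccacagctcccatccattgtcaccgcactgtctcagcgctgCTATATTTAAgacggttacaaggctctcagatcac
Nrap: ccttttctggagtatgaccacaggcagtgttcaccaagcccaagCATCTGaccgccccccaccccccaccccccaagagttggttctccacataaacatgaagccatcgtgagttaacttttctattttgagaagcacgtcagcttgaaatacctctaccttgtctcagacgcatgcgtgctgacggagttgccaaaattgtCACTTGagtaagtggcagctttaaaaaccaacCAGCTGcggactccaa
Acta1 held a CArG box that begins at position -73, counted from the start, an M-CAT match at -46 and E-boxes at -238 and -221. Mybpc2 held an M-CAT match at -62 and an E-box at -157. The Smyd1 window held none of the 4 motifs. In Myom3 a MEF2 match stood at -35 and an E-box at -142, and Nrap held E-boxes alone, at -206, -48 and -16. No overlap between matches of different motifs occurred in these 5 windows. Promoters were matched for 26 of the 35 members. A CArG box was found in 4 of them (Acta1, Actc1, Ldb3 and Myom1), against 1.4% of all 27025 promoters. The MEF2 site was found in 4 (Xirp2, Ttn, Myoz2 and Myom3), against 3.01% of all promoters. The M-CAT element was found in 5 and the E-box in 20 of the 26, against 12.6% and 66% of all promoters. Of the 5 matched members called lower in extrasynaptic muscle at 26 weeks 1 held a CArG box, and of the 8 called higher none did. The MEF2 site was in 0 of those 5 and 1 of those 8. A match describes the letters of the window and is not evidence of binding.

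Among the thin filament genes, skeletal actin and the tropomodulin Tmod4 fell and the tropomodulin Tmod1 rose. Of the 8 members of this group 3 were lower and 1 higher in each region at 26 weeks, and 2 were lower in extrasynaptic muscle at 15 weeks. Over all genes 5.97% were called lower and 8.04% higher in perisynaptic muscle at 26 weeks, and 16.1% each way in extrasynaptic muscle. At 15 weeks 0.67% of all genes were called lower in extrasynaptic muscle. Acta1 (ENSMUSG00000031972.5, chr8:123891769-123894751, minus strand, GRCm38) measured 13728, 12489.7, 12728 and 13609 CPM in perisynaptic SBMA libraries at 26 weeks, against 24809, 28390.5, 22647 and 23997 CPM in control libraries. The groups did not overlap, and the fold change was -0.92 ± 0.12, adjusted p = 8.86e-05. In extrasynaptic libraries at that age it measured 12309.9, 11167, 13239.6 and 13476 CPM in SBMA, against 26502, 26958, 23385 and 23528 CPM in control animals, again without overlap (-1.0 ± 0.10, adjusted p = 3.79e-06). Already at 15 weeks extrasynaptic SBMA libraries held 16844, 18290.1, 14902 and 16225 CPM, against 23549.8, 25607 and 30289 CPM in control libraries (-0.68 ± 0.10, adjusted p = 0.00387). Perisynaptic libraries of 15 weeks were also separated, at 15894 to 19713 CPM in SBMA and 24089.5 to 28426 CPM in control animals, but the test was not passed (-0.56 ± 0.12, adjusted p = 0.0972). The actin genes are nearly identical in their coding sequence, so reads could be split between Acta1, Actc1 and the smooth muscle actins by the counting.

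Tmod4, the tropomodulin of skeletal muscle that caps thin filaments at their pointed end, showed one of the largest falls of the set. At 26 weeks Tmod4 (ENSMUSG00000005628.12, chr3:95124476-95129209, plus strand) measured 133, 131, 132 and 142 CPM in perisynaptic SBMA libraries, against 387, 437, 349.8 and 338 CPM in control libraries (-1.48 ± 0.11, adjusted p = 5.26e-07). Every SBMA library lay well under every control library. The extrasynaptic values were 114, 114, 127 and 146 CPM in SBMA and 394, 385, 343 and 329 CPM in control mice (-1.53 ± 0.10, adjusted p = 5.45e-08), also far apart. At 15 weeks the difference was smaller, with 269.7, 258, 233 and 262 CPM in extrasynaptic SBMA libraries and 307, 362 and 375 CPM in control libraries (-0.45 ± 0.10, adjusted p = 0.0415). That call was lost without any one of 6 of the 7 animals (log2 -0.53 to -0.39), with the length index as a covariate and with total-count scaling. In perisynaptic libraries of 15 weeks Tmod4 lay at 242 to 302 CPM in SBMA and 351 to 393 CPM in control animals (-0.41 ± 0.11, adjusted p = 0.246).

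Tmod1, which caps thin filaments alongside Tmod4 in skeletal muscle, moved in the other direction. Tmod1 (ENSMUSG00000028328.13, chr4:46038935-46116032, plus strand) measured 354, 323, 348 and 324 CPM in perisynaptic SBMA libraries at 26 weeks, against 191, 186, 209.6 and 212 CPM in control libraries (0.77 ± 0.087, adjusted p = 3.49e-05). In extrasynaptic libraries it measured 369, 345, 355 and 322 CPM in SBMA and 217, 230.1, 216 and 215 CPM in control animals (0.67 ± 0.072, adjusted p = 9.57e-06). Neither region overlapped at this age. At 15 weeks both regions overlapped, with 232 to 279 CPM in extrasynaptic SBMA libraries and 224 to 253 CPM in control libraries (0.02 ± 0.078). The exons of Tmod1 share 1287 bases with Tstd2 on the opposite strand, and the strand setting of the counting is not given in the sources used here, so reads of these genes cannot be told apart over that stretch.

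The other thin filament genes changed less or varied more. Lmod3, a leiomodin that nucleates actin filaments, fell by 0.52 on the log2 scale in perisynaptic muscle at 26 weeks (adjusted p = 0.00275) and by 0.50 in extrasynaptic muscle (adjusted p = 0.00142). Without the animals numbered 79 to 82 neither call held (-0.38 and -0.34, adjusted p = 0.0522 and 0.113), and the perisynaptic one was also lost with total-count scaling (-0.27). Its relative Lmod2 stood at -0.42 ± 0.20 and -0.32 ± 0.17 in perisynaptic and extrasynaptic muscle, and neither was called (adjusted p = 0.178 and 0.174), although the perisynaptic groups did not overlap. Actc1, the cardiac actin that is also made in developing muscle, had 202, 222, 440.1 and 167 CPM in perisynaptic SBMA libraries at 26 weeks, against 140.5, 173, 172 and 135 CPM in control libraries, a log2 fold change of 0.74 ± 0.27 that was not called (adjusted p = 0.0763). Neb, which encodes nebulin, and Capzb, the capping protein of the barbed end, were not called in any comparison of genotypes. Nebulin transcripts ranged widely within each genotype, with 3026 to 7769.9 CPM in perisynaptic SBMA and 1438 to 8445 CPM in control libraries at 26 weeks.

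The Z-disc group held members that fell and members that rose. Of its 12 genes 4 were lower and 1 higher in perisynaptic muscle at 26 weeks, 5 lower and 3 higher in extrasynaptic muscle at 26 weeks, and 3 lower in extrasynaptic muscle at 15 weeks. The shares of all genes called in these comparisons were 5.97% lower and 8.04% higher, 16.1% in each direction, and 0.67% lower. Tcap (ENSMUSG00000007877.2, chr11:98383811-98384953, plus strand) encodes telethonin, which joins the ends of titin molecules in the Z-disc. It measured 1605, 1344, 1539 and 1605 CPM in perisynaptic SBMA libraries at 26 weeks, against 3081, 7331, 3264 and 4298 CPM in control libraries (-1.55 ± 0.25, adjusted p = 0.000651). The control library of 7331 CPM is replicate 2, the one with the lowest length index, and without that animal the fold change was -1.21. In extrasynaptic libraries Tcap measured 992, 924, 1521 and 1445 CPM in SBMA and 3055, 4745, 3344 and 3873 CPM in control animals (-1.62 ± 0.18, adjusted p = 1.02e-05). Genotypes did not overlap in either region. At 15 weeks the extrasynaptic groups were already apart, at 1835 to 2295 CPM in SBMA and 2759 to 4079.6 CPM in control mice, a difference that was not called (-0.75 ± 0.19, adjusted p = 0.0661), and the perisynaptic groups overlapped (-0.71 ± 0.26).

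Myozenins are Z-disc proteins that bind alpha-actinin and calcineurin, and Myoz1 is the form of fast fibres. Myoz1 (ENSMUSG00000068697.7, chr14:20649107-20656540, minus strand) measured 380.1, 397, 321 and 307 CPM in perisynaptic SBMA libraries at 26 weeks, against 801, 869, 679 and 647 CPM in control libraries (-1.08 ± 0.11, adjusted p = 1.74e-05). Extrasynaptic libraries held 323, 326, 306 and 309 CPM in SBMA and 853, 805, 710.1 and 646 CPM in control animals (-1.25 ± 0.089, adjusted p = 1.87e-07). At 15 weeks the extrasynaptic values were 570.5, 472, 496 and 509 CPM in SBMA and 733, 802 and 851 CPM in control mice (-0.64 ± 0.094, adjusted p = 0.00275). Genotypes were separated in all these comparisons, and in perisynaptic libraries of 15 weeks too, at 525 to 569 CPM in SBMA and 792 to 817 CPM in control animals, where the test was not passed (-0.55 ± 0.12, adjusted p = 0.0949). Myoz2, the form of slow and cardiac muscle, was not called at either age or region, with fold changes from -0.30 to -0.10. Myoz3, a scarcer form, averaged 22.7 ± 1.52 CPM in extrasynaptic SBMA and 38.4 ± 12.2 CPM in control libraries at 26 weeks (SD, n = 4 each) and was lower (-0.76 ± 0.18, adjusted p = 0.00426), although the ranges overlapped.

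Myot, which encodes the actin-binding Z-disc protein myotilin (ENSMUSG00000024471.12, chr18:44334074-44355724, plus strand), measured 653, 669, 758 and 750.4 CPM in perisynaptic SBMA libraries at 26 weeks, against 1255, 809, 1435 and 1566 CPM in control libraries (-0.83 ± 0.16, adjusted p = 0.00245). The lowest control library, again replicate 2, lay just above the highest SBMA library. In extrasynaptic muscle it measured 768, 789, 783 and 737 CPM in SBMA and 1367, 1250.0, 1398 and 1611 CPM in control mice, which stood clear of each other (-0.87 ± 0.074, adjusted p = 9.16e-07). At 15 weeks Myot had 928, 976, 916 and 1015 CPM in extrasynaptic SBMA libraries and 1206, 1309.6 and 1276 CPM in control libraries (-0.40 ± 0.079, adjusted p = 0.0189). The perisynaptic values of that age were 863 to 1019.9 CPM in SBMA and 1214 to 1389 CPM in control mice (-0.46 ± 0.17, adjusted p = 0.514). The extrasynaptic call at 15 weeks was lost when any one of 5 of the 7 animals was left out, with log2 values of -0.43 to -0.37.

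Actn3, the alpha-actinin of fast fibres that cross-links actin at the Z-disc, was lower in SBMA muscle at both ages in the extrasynaptic region. Actn3 (ENSMUSG00000006457.3, chr19:4861216-4877909, minus strand) measured 260.2, 194, 259.6 and 399 CPM in extrasynaptic SBMA libraries at 26 weeks, against 677, 664, 571 and 482 CPM in control libraries (-1.11 ± 0.20, adjusted p = 0.000707). In perisynaptic libraries the values were 329, 306, 188 and 394 CPM in SBMA and 564, 476, 494 and 576 CPM in control animals (-0.78 ± 0.19, adjusted p = 0.0138). At 15 weeks extrasynaptic libraries held 667, 601, 698 and 428 CPM in SBMA and 1339, 951 and 1085 CPM in control animals (-0.91 ± 0.21, adjusted p = 0.0478). None of these groups overlapped, but the call at 15 weeks was lost without any one of 6 of the 7 animals (log2 -1.02 to -0.77) and with the length index as a covariate. Without the animals numbered 79 to 82 the 26-week calls were lost as well, at -0.87 in perisynaptic and -0.68 in extrasynaptic muscle (adjusted p = 0.0839 and 0.097), and total-count scaling lost the perisynaptic one (-0.52, adjusted p = 0.0739). In perisynaptic libraries of 15 weeks the genotypes overlapped, at 519.9 to 815 CPM in SBMA and 808 to 1161 CPM in control mice (-0.64 ± 0.21). Actn2, the alpha-actinin found in all fibre types, rose by 0.31 ± 0.086 in extrasynaptic muscle at 26 weeks (adjusted p = 0.0127) and stood at 0.29 ± 0.12 in perisynaptic muscle (adjusted p = 0.106).

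PDZ and LIM domain genes of the Z-disc included one that rose in both regions. Pdlim3, which encodes an alpha-actinin-binding LIM protein (ENSMUSG00000031636.7, chr8:45885461-45919548, plus strand), measured 239, 212, 171 and 199.9 CPM in perisynaptic SBMA libraries at 26 weeks, against 166, 122, 138 and 129 CPM in control libraries (0.58 ± 0.14, adjusted p = 0.0104). In extrasynaptic libraries it measured 236, 216, 219 and 208 CPM in SBMA and 172, 142, 147 and 125 CPM in control animals (0.59 ± 0.12, adjusted p = 0.00204). Genotypes did not overlap in either region at this age, and at 15 weeks they overlapped in both (-0.05 and -0.11 in perisynaptic and extrasynaptic muscle). Pdlim5, Pdlim7 and Ldb3, which encodes the Z-disc protein ZASP, were not called in any comparison of genotypes, with fold changes from -0.16 to 0.20.

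Csrp3, which encodes the muscle LIM protein of slow and cardiac muscle (ENSMUSG00000030470.15, chr7:48830398-48848033, minus strand), had the largest rise of the set, and its values were widely spread. It measured 62.4, 60.7, 102 and 85.9 CPM in extrasynaptic SBMA libraries at 26 weeks, against 17.3, 40.8, 22.9 and 62.6 CPM in control libraries (1.11 ± 0.34, adjusted p = 0.0205). The highest control library overlapped the lower SBMA libraries, and the call was lost without control replicate 1 or 3 or SBMA replicate 3 (log2 0.88 to 1.52 over the 8 animals left out). In perisynaptic libraries the ranges were 79.8 to 148 CPM in SBMA and 39.4 to 126 CPM in control animals, with no call (0.32 ± 0.41). At 15 weeks it stood at -0.61 ± 0.44 and -0.80 ± 0.36 in perisynaptic and extrasynaptic muscle, below 0 and not called in either.

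**Figure D2:**
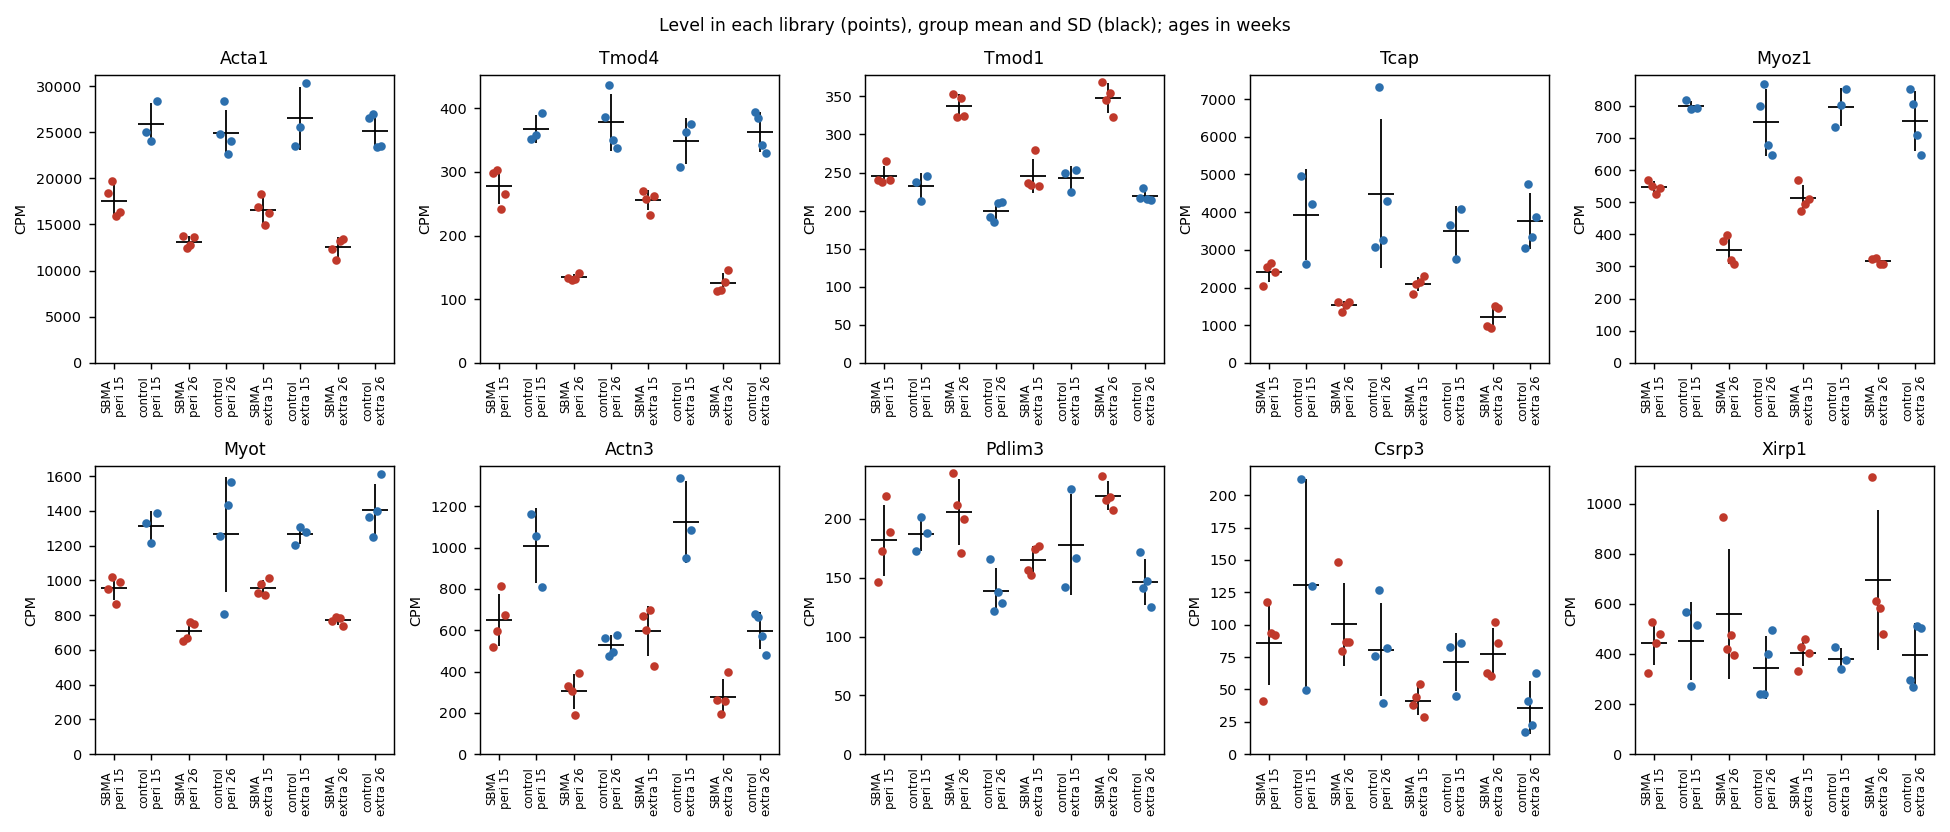
Level in CPM (y axis, from 0) of 10 members in each library (points, SBMA red and control blue), with group mean and SD in black, for the 8 groups by region and age in weeks (x axis). Acta1, Tmod4, Tcap and Myoz1 lie lower in SBMA than in control at 26 weeks without overlap, Tmod1 and Pdlim3 lie higher, and Csrp3 and Xirp1 overlap.

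Between genotypes, genes of the thick filament and M-band were called in extrasynaptic muscle at 26 weeks alone. Of these 8 members none was called in perisynaptic muscle at 26 weeks, where 14% of all genes were. In extrasynaptic muscle 1 was higher and 2 lower, where 16.1% of all genes were called in each direction. The perisynaptic median of the group was -0.11 and the extrasynaptic median -0.19. Mybpc2, the fast form of myosin-binding protein C, averaged 1038 ± 103 CPM in extrasynaptic SBMA and 1338 ± 145 CPM in control libraries at 26 weeks (SD, n = 4 each; -0.37 ± 0.12, adjusted p = 0.0242). The groups were separate, but the call was lost without control replicate 1 or SBMA replicate 2, 3 or 4. Obsl1, an obscurin-like protein that binds titin and myomesin, was lower (-0.33 ± 0.090, adjusted p = 0.0111), and Myom3, the myomesin of slow and intermediate fibres, was higher (0.42 ± 0.13, adjusted p = 0.0217). The Myom3 call was lost without control replicate 1 or 2 or SBMA replicate 3 (log2 0.31 to 0.53) and in the fit of only the 2 groups compared. Mybpc1, the slow form of myosin-binding protein C, stood at 0.22 ± 0.093 and the myomesins Myom1 and Myom2 at -0.24 and -0.19, none of them called. The scarce Mybph, a relative of myosin-binding protein C, had standard errors of 0.51 and 0.55 in perisynaptic and extrasynaptic muscle and no call. Its exons share 1162 bases with Adora1 on the opposite strand.

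Ttn, which encodes titin, showed how far the libraries that stand apart reach. It measured 5621, 7357, 12182 and 12182 CPM in perisynaptic SBMA libraries at 26 weeks, against 9621, 5520.0, 17595 and 18687 CPM in control libraries (-0.45 ± 0.33, adjusted p = 0.397). Within each genotype the first pair of animals lay below the second pair. The extrasynaptic values were 10819, 12455, 14620.2 and 10437 CPM in SBMA and 11668, 8618, 16229 and 18716 CPM in control mice, overlapping and not called (-0.19 ± 0.19, adjusted p = 0.457). With the length index as a covariate Ttn was called lower in both regions, at -0.61 in perisynaptic and -0.60 in extrasynaptic muscle (adjusted p = 0.000706 and 0.0123).

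Most members that join the sarcomere to the membrane and to sites of repair rose in extrasynaptic muscle at 26 weeks. Of these 5 genes 3 (Flnc, Nrap and Xirp1) rose and none fell there, and none was called in perisynaptic muscle, where the median was 0.47. Flnc, filamin C, which cross-links actin at the Z-disc and the membrane, averaged 1987 ± 279 CPM in extrasynaptic SBMA and 1236 ± 265 CPM in control libraries (SD, n = 4 each; 0.69 ± 0.13, adjusted p = 0.00114). Nrap, a nebulin-related protein of forming myofibrils and muscle ends, averaged 3503 ± 292 and 2349.5 ± 527 CPM in SBMA and control libraries of that region (0.58 ± 0.12, adjusted p = 0.00255). Neither gene's groups overlapped. Genes of the myotendinous junction, where Nrap, Xirp1 and Flnc are also known to be found, moved with genotype as well. A list of 6 such genes, of which Ankrd1 is also counted among the other sarcomere genes described at the end, summed to 29.7 to 75.7 CPM in perisynaptic SBMA libraries and 11.6 to 17.8 CPM in control libraries at 26 weeks, with 4 genes called higher and 1 lower. In extrasynaptic libraries it summed to 23.7 to 58.6 CPM in SBMA and 14.5 to 43.5 CPM in control animals, with 3 called higher and none lower. The shares of all genes were 8.04% higher and 5.97% lower in perisynaptic muscle, and 16.1% each way in extrasynaptic muscle. How far the share of muscle ends in a piece bears on these members was not tested.

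Xirp1, which encodes the actin-binding protein Xin (ENSMUSG00000079243.3, chr9:120013755-120023598, minus strand), measured 1106, 612, 581 and 480.1 CPM in extrasynaptic SBMA libraries at 26 weeks, against 296, 269, 511 and 502 CPM in control libraries (0.82 ± 0.24, adjusted p = 0.0191). SBMA replicate 1 was the highest, and the call was lost without it or without control replicate 1 or 2. Between SBMA and control animals numbered 79 to 82 the log2 difference was 1.54, and between those numbered 95 to 98 it was 0.06. Perisynaptic libraries held 946, 421, 476 and 396 CPM in SBMA and 241, 241, 401 and 495 CPM in control animals, with no call (0.71 ± 0.31, adjusted p = 0.147). Xirp2 and Cmya5, which encode a Xin relative and myospryn, were not called, at -0.06 ± 0.17 and -0.35 ± 0.20 in extrasynaptic muscle. The exons of Cmya5 share 2570 bases with antisense genes.

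Both assembly factors changed in extrasynaptic muscle at 26 weeks, in opposite directions. Smyd1, a methyltransferase that assists myosin folding, averaged 749.9 ± 36.6 CPM in SBMA and 499 ± 57.3 CPM in control mice (SD, n = 4 each; 0.59 ± 0.079, adjusted p = 6.36e-05). Unc45b, a myosin chaperone, averaged 306 ± 26.8 and 394 ± 26.7 CPM in SBMA and control libraries (-0.36 ± 0.086, adjusted p = 0.00455). Groups were separate for both genes. In perisynaptic muscle they stood at 0.55 ± 0.18 and -0.32 ± 0.13, which did not pass (adjusted p = 0.0512 and 0.129).

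Related genes were set against each other within each library, as log2 ratios of CPM per kilobase. Such a ratio does not depend on the scaling of the library, and the pairs were picked after their values had been seen, so no test is given. It can still depend on how long and short transcripts are represented. Exonic bases were 1717 for Tmod4 and 3946 for Tmod1, 1892 for Myoz1 and 3423 for Myoz2, and 2901 for Actn3 and 3795 for Actn2. Only in Lmod3 (2215) over Lmod2 (1976) is the first gene the longer one. How far the length index bears on these ratios was not tested. For Tmod4 over Tmod1 the ratio was -0.13 ± 0.10 in perisynaptic SBMA libraries at 26 weeks, against 2.12 ± 0.26 in control libraries (SD, n = 4 each). In extrasynaptic libraries it was -0.28 ± 0.24 in SBMA and 1.92 ± 0.10 in control animals. Control muscle thus held more Tmod4 than Tmod1 transcript per kilobase, and SBMA muscle of 26 weeks about equal amounts. At 15 weeks SBMA libraries spanned 1.07 to 1.55 and control libraries 1.77 to 1.96 in perisynaptic muscle, without overlap. The ratio of Myoz1 to Myoz2 was lower in SBMA than in control libraries without overlap in all 4 comparisons, at 0.52 ± 0.15 against 1.68 ± 0.43 in extrasynaptic muscle at 26 weeks. Actn3 over Actn2 was separated in 3 of the 4 comparisons and overlapped in perisynaptic muscle at 15 weeks. It averaged -2.95 ± 0.47 in extrasynaptic SBMA and -1.50 ± 0.37 in control libraries at 26 weeks. Acta1 over Actc1 and Mybpc2 over Mybpc1 were separated at 26 weeks and overlapped at 15 weeks. Lmod3 over Lmod2 overlapped in every comparison.

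**Figure D3:**
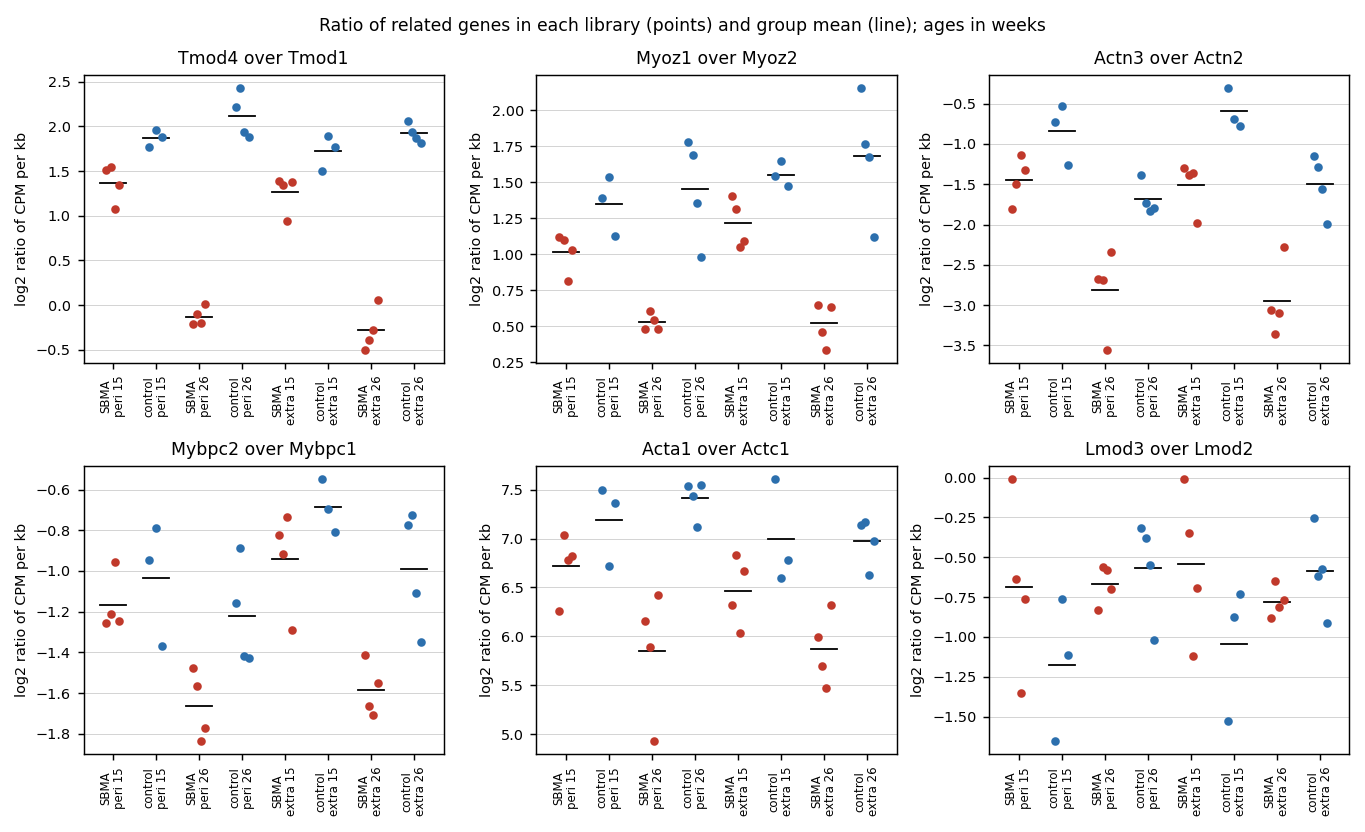
Log2 ratio of CPM per kilobase for 6 pairs of related genes (y axis) in each library (points, SBMA red and control blue) with the group mean as a line, for the 8 groups by region and age in weeks (x axis). The ratio of Tmod4 to Tmod1 lies near 0 in SBMA libraries of 26 weeks and near 2 in control libraries, while Lmod3 over Lmod2 overlaps throughout.

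The test of genotype by age called both tropomodulins in both regions. In the test of genotype by age, SBMA minus control at 26 weeks minus the same at 15 weeks, 2 of 35 members were called in perisynaptic muscle, where 0.375% of all genes were (0.241% higher and 0.133% lower). In extrasynaptic muscle 4 members were called, 1 higher and 3 lower, against 1.73% of all genes (1.01% higher and 0.715% lower). Tmod4 was called in both, at -1.07 ± 0.15, adjusted p = 0.0106 in perisynaptic and -1.09 ± 0.14, adjusted p = 0.0013 in extrasynaptic muscle, and kept the call whichever animal was left out. For Tmod1 the values were 0.69 ± 0.13, adjusted p = 0.0259 and 0.65 ± 0.11, adjusted p = 0.00649, and the perisynaptic call was lost without any one of 9 of the 15 animals. Myoz1 and Myot were called in extrasynaptic muscle alone (-0.61 ± 0.13, adjusted p = 0.0245 and -0.47 ± 0.11, adjusted p = 0.0404), and each lost the call without some single animals, 7 of 15 for Myoz1 and 12 of 15 for Myot. With the replicate number within each age as a block in the fit, no member was called in either region, Tmod4 included. Without replicates 1 and 2 of both genotypes at 26 weeks Tmod4 kept its call in both regions. Tmod1 lost its call in both regions in that fit, and Myoz1 and Myot lost theirs in extrasynaptic muscle. The age differences of Acta1 (-0.32 ± 0.14) and Tcap (-0.87 ± 0.26) in extrasynaptic muscle were not called.

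In control muscle no member was called between 26 and 15 weeks in either region, and no gene at all was (0%). At an unadjusted p under 0.05 stood 5 members in perisynaptic and 6 in extrasynaptic muscle, and DESeq2 called 1 in each. Actn3 had the smallest p in both, with 677, 664, 571 and 482 CPM in extrasynaptic control libraries at 26 weeks, against 1339, 951 and 1085 CPM at 15 weeks. The 26-week libraries lay below those of 15 weeks without overlap in both regions (26 minus 15 weeks, -0.94 ± 0.21, adjusted p = 0.328 in perisynaptic and -0.91 ± 0.21, adjusted p = 0.253 in extrasynaptic muscle). Groups did not overlap for 3 members in perisynaptic control muscle (Actn3, Tmod1 and Pdlim3, 5.11% of all genes) and for 2 in extrasynaptic control muscle (Actn3 and Myom2, 5.2% of all genes).

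Few members differed between the regions of the same diaphragm. Perisynaptic minus extrasynaptic, with the animal as a term and averaged over the ages, 3 of 35 members were called in SBMA animals, 2 higher and 1 lower, where 3.53% of all genes were called (2.8% higher and 0.731% lower). In control animals 2 were called, both higher, where 2.85% of all genes were (2.1% higher and 0.75% lower). Myoz2 was higher in the perisynaptic piece in both genotypes, at 0.22 ± 0.051, adjusted p = 0.025 in SBMA and 0.21 ± 0.055, adjusted p = 0.0454 in control animals. Mybph was higher (0.95 ± 0.21, adjusted p = 0.0165) and Xirp2 lower (-0.33 ± 0.079, adjusted p = 0.0266) in SBMA animals, and Csrp3 was higher in control animals (0.96 ± 0.22, adjusted p = 0.0234). With the length index as a covariate or without the animal term none of these was called, and each was lost without some single animals. Whether the regional difference depends on genotype was tested at each age, and no member was called at 15 weeks (0% of all genes) or at 26 weeks (0.0124% of all genes, 0.0062% in each direction). At an unadjusted p under 0.05 there were 0 members at 15 weeks and 1 at 26 weeks, Actc1 (0.53 ± 0.19), and DESeq2 called none at either age. The larger count of calls in extrasynaptic muscle at 26 weeks is thus not shown to be a difference between regions for any single member.

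The 26-week calls were compared under other treatments of the counts. Total-count scaling, which leaves out the composition factors, put the median gene at 0.24 in perisynaptic and 0.18 in extrasynaptic muscle at 26 weeks. With TMM factors it stood at -0.016 and -0.031. It called 10 members higher and 5 lower in perisynaptic muscle, in place of 2 and 7, and 13 higher and 8 lower in extrasynaptic muscle, in place of 9 and 11. Over all genes it called 27.1% higher and 2.43% lower in perisynaptic and 34.3% higher and 6.14% lower in extrasynaptic muscle. With the length index as a covariate 6 members were higher and 15 lower in perisynaptic muscle, and 5 higher and 13 lower in extrasynaptic muscle. Over all genes that fit called 14.4% higher and 10.8% lower in perisynaptic and 11.1% higher and 11.1% lower in extrasynaptic muscle. Without the animals numbered 79 to 82, which include control replicate 2, 2 were higher and 9 lower in perisynaptic muscle and 5 higher and 9 lower in extrasynaptic muscle. Over all genes 6.07% higher and 4.08% lower were called in perisynaptic and 6.74% higher and 6.19% lower in extrasynaptic muscle. Without control replicate 2 alone 16 members were called in perisynaptic muscle, 4 higher and 12 lower, where 9.7% and 7.62% of all genes were. Acta1, Tmod1, Tmod4, Myot, Myoz1 and Tcap were called in the same direction in both regions under the first 3 of these treatments, and Myoz3, Pdlim3, Flnc and Smyd1 in extrasynaptic muscle. Mybpc2, Obsl1, Myom3, Actn2, Csrp3, Nrap and Xirp1 lost their extrasynaptic call with the length index as a covariate. The fold changes of Mybpc2 (-0.39 with the index and -0.37 without), Csrp3 (1.07 and 1.11), Actn2 (0.28 and 0.31) and Obsl1 (-0.27 and -0.33) stayed close in size. Those of Myom3 (0.21 and 0.42), Xirp1 (0.51 and 0.82) and Nrap (0.36 and 0.58) were smaller with it. Without the animals numbered 79 to 82 the perisynaptic calls of Lmod3, Actn3 and Pdlim3 were lost, and the extrasynaptic calls of Lmod3, Mybpc2, Myom3, Obsl1, Actn2, Actn3, Csrp3 and Xirp1. Total-count scaling lost Lmod3 and Actn3 in perisynaptic and Mybpc2, Obsl1 and Unc45b in extrasynaptic muscle. With the length index Ttn, Myom1, Xirp2 and Cmya5 were called lower in both regions, and Pdlim7 higher (0.30 in perisynaptic and 0.36 in extrasynaptic muscle). Cmya5 stood at -0.71 and -0.84 in perisynaptic and extrasynaptic muscle in that fit, and at -0.54 and -0.35 without the covariate.

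**Figure D4:**
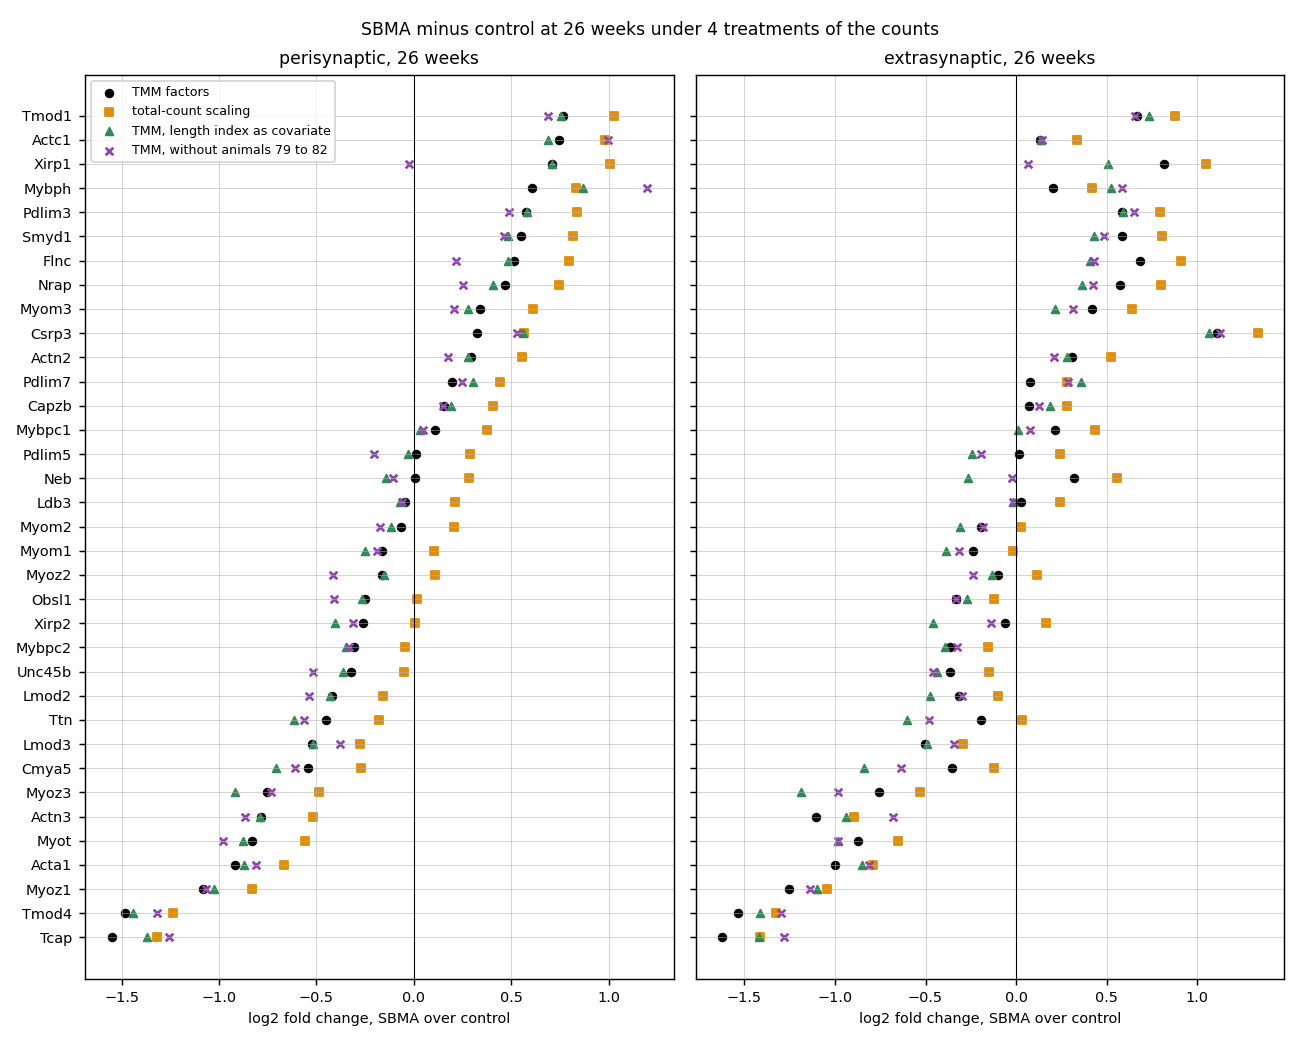
Log2 fold change of SBMA over control at 26 weeks (x axis) for the 35 members (y axis, in the order of the perisynaptic values) with TMM factors (circles), total-count scaling (squares), the length index as a covariate (triangles) and without the animals numbered 79 to 82 (crosses). Tcap, Tmod4, Myoz1, Acta1 and Myot lie below 0 and Tmod1, Pdlim3 and Smyd1 above 0 in all of them, while Xirp1 moves to near 0 without those animals.

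Long members were low in the perisynaptic libraries with the lowest length index. Among the 8 perisynaptic libraries of 26 weeks the lowest Ttn, Neb, Cmya5 and Xirp2 levels were found in the 4 animals numbered 79 to 82 in both genotypes. Control replicate 2 had 1438 CPM of Neb and 5520.0 CPM of Ttn, while control replicate 4 had 8445 and 18687 CPM. Tcap, with 948 exonic bases the shortest member, was highest in that same replicate 2. In extrasynaptic libraries of 26 weeks Ttn did not follow the index between genotypes. It held 16229 and 18716 CPM in control replicates 3 and 4, whose index was 0.091 and 0.165. The SBMA libraries, with a higher index, held 10437 to 14620 CPM. Levels of Tmod4 and Tmod1 did not overlap between genotypes in the 26-week libraries. In extrasynaptic libraries of that age the genotypes shared no range of the index (0.21 to 0.305 in SBMA and -0.443 to 0.165 in control animals). Levels at an equal index therefore cannot be compared there. Whether RNA quality or library preparation differed with the index was not tested.

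**Figure D5:**
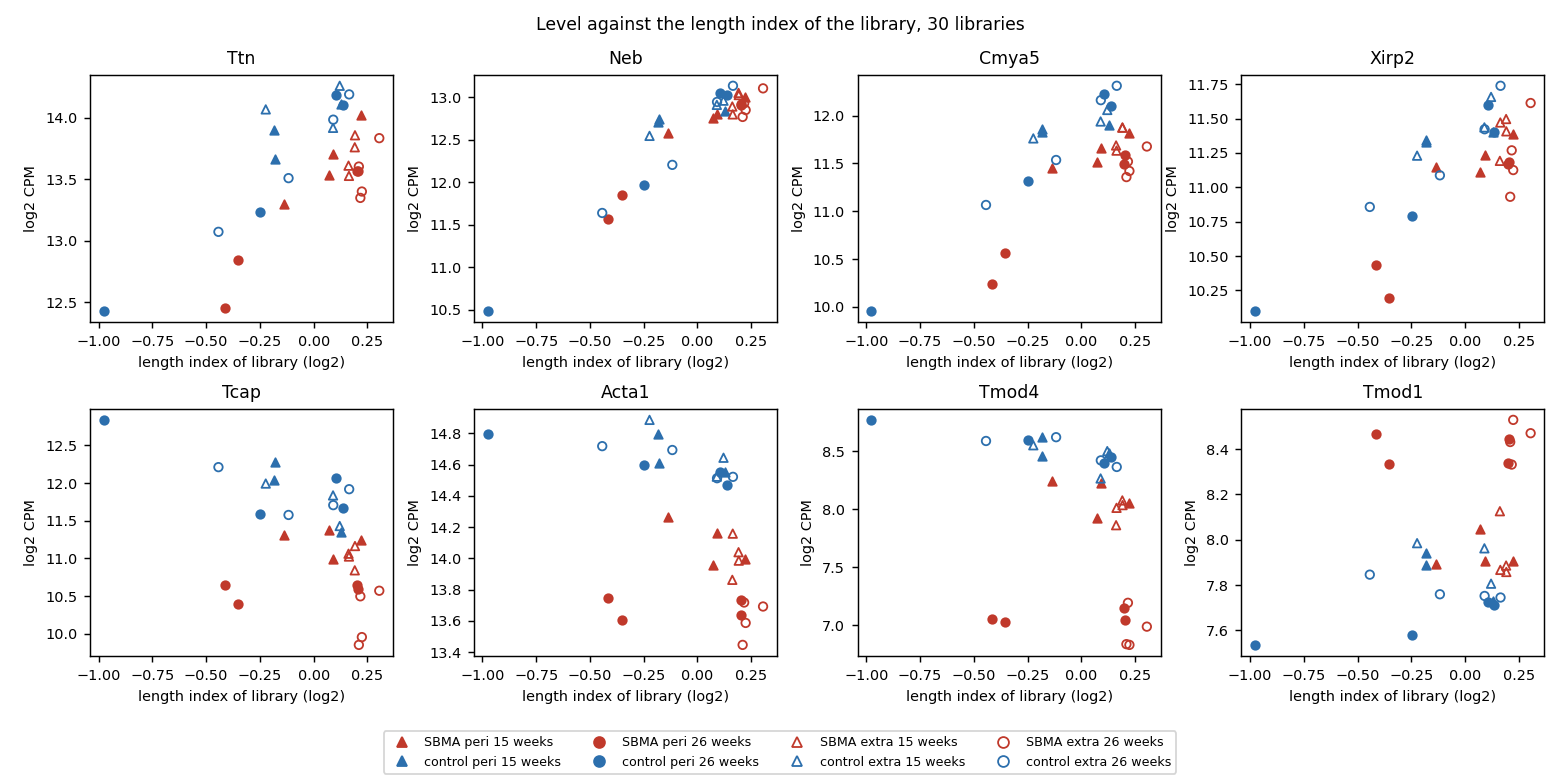
Level of 8 members (y axis, log2 CPM) against the length index of the library (x axis, log2) in 30 libraries, SBMA red and control blue, perisynaptic filled and extrasynaptic open, circles for 26 weeks and triangles for 15 weeks. Ttn, Neb, Cmya5 and Xirp2 are lowest where the index is lowest (-0.98, control replicate 2). For Tmod4 and Tmod1 the red circles stand apart from the blue ones in level, and no red circle has an index below -0.414.

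Other genes of the sarcomere were taken from lists chosen with earlier results of these data known. Of all genes tested at 26 weeks, 8.04% were called higher and 5.97% lower in perisynaptic muscle, and 16.1% each way in extrasynaptic muscle. The 17 motor and calcium-switch genes were myosins, troponins and tropomyosins, with fast forms and slow ones such as Myh7, Myl2, Tnni1 and Tnnt1. Of these 17 genes 15 were lower and none higher in each region at 26 weeks. Their medians were -0.95 in perisynaptic and -1.0 in extrasynaptic muscle. In extrasynaptic muscle at 15 weeks 6 of them were lower, with a median of -0.47, where 0.67% of all genes were called lower. Of 38 further Z-disc, chaperone and filament-regulating genes 5 rose and 4 fell in perisynaptic muscle at 26 weeks (median 0.01), and 10 rose and 10 fell in extrasynaptic muscle (median 0.07). The members of this list with the smallest p in extrasynaptic muscle were the small heat shock gene Hspb6 (-0.70 ± 0.081), the LIM protein gene Fhl3 (-1.04 ± 0.12), the titin-associated ankyrin repeat gene Ankrd23 (-1.56 ± 0.21) and Klhl41, which stabilises thin filament proteins (0.64 ± 0.090). In perisynaptic muscle they were Lmod1, a leiomodin best known from smooth muscle (-1.20 ± 0.17), Ankrd1, a stress-induced ankyrin repeat gene (3.11 ± 0.52), Fhl3 (-0.99 ± 0.17) and Hspb6 (-0.63 ± 0.13). Of the 6 members linked to fast fibres (Actn3, Mybpc2, Myoz1, Myoz3, Myom2 and Tmod4) 5 were lower in extrasynaptic muscle at 26 weeks, with a median of -0.93, and 3 in perisynaptic muscle, with a median of -0.77. Of the 4 linked to slow fibres (Mybpc1, Myoz2, Myom3 and Csrp3) 2 (Myom3 and Csrp3) were higher and none lower in extrasynaptic muscle at 26 weeks, with a median of 0.32. None of the 4 was called in perisynaptic muscle at that age (median 0.21) or in either region at 15 weeks (medians -0.18 and -0.19 in perisynaptic and extrasynaptic muscle).

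Markers of other cells in the pieces also moved with genotype in extrasynaptic muscle at 26 weeks, where 16.1% of all genes were called lower. Summed over 10 macrophage genes, 204 to 235 CPM were counted in extrasynaptic SBMA and 291 to 406 CPM in control libraries, without overlap, and 7 of the 10 were called lower. Of 10 endothelial genes 4 were lower there, with sums of 654 to 707 CPM in SBMA and 758 to 1084 CPM in control mice. Of 10 fibroadipogenic genes 5 were lower (1671 to 2350.1 and 1955 to 2746 CPM in SBMA and control libraries), and of 6 mesothelial genes 4 (101 to 283 and 299.8 to 339.9 CPM). Of 11 genes of smooth muscle and pericytes, cells with actins of their own, 2 were lower, a share near that of all genes, and the list summed to 971 to 1084 CPM in SBMA and 1080.0 to 1167 CPM in control mice. No adipocyte, erythroid or Schwann cell gene of the lists was called in that comparison. None of these lists held a gene called higher. In perisynaptic muscle at that age fewer were called lower, 1 of 10 macrophage, 2 of 10 endothelial, 1 of 10 fibroadipogenic, 0 of 6 mesothelial and 1 of 10 smooth muscle and pericyte genes tested, where 5.97% of all genes were. Their part in the members' differences was not tested.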

How the data were processed

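Messenger RNA of 30 pieces of diaphragm from 15 male mice had been sequenced after on-column DNA digestion and a stranded mRNA library kit, per the labels' protocols. The deposited table holds raw read counts per gene made by the authors with featureCounts on mm10, per the submitters' processing notes. Which aligner, annotation release and strand setting were used is not given in the sources used here. Of 33076 gene IDs, 33064 matched GENCODE vM21 by their stem, and the 12 others held 0.001706% of the counts. The closest same-group libraries differed far beyond sampling noise (mean chi-square 14.68 per gene), so each was counted as 1 sample.

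Here the counts were tested with edgeR 4.0.16 in R 4.3.3 (TMM factors, minimum count 10, minimum total 15, quasi-likelihood F test, Benjamini-Hochberg adjustment over all genes tested). Each region was fitted alone, with 4 groups in 15 libraries (15735 perisynaptic and 15526 extrasynaptic genes). Regions were compared in a joint fit of 30 libraries with the animal as a term (16138 genes). CPM values use TMM factors over all 30 libraries. The scripts were tested on simulated data. No label says what a replicate number marks, and not every same-numbered pair of animals correlated, so the tests take animals as independent. P-values measure the spread between single mice.

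The 35 members and all gene lists were chosen with earlier results of these data known. Values in every library are given for members called at 15 weeks or in an interaction test, and for the 8 largest changes among those called in each 26-week comparison. Of other lists, counts, medians and the genes with the smallest p are given. Actc1 and Ttn were added to these after their values were seen, and so was the length index. Alternatives were DESeq2 1.42.0, RLE factors, total-count scaling, no filter, a replicate block, a block of runs of animal numbers, only the groups compared, no animal term, and leaving out each animal. The length index as a covariate and leaving out the animals numbered 79 to 82 were chosen after seeing the data.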

Additional observations from a re-analysis of the deposited data

Results flagged for a closer look

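In each group of 4 libraries, every member was examined for a library whose gap to the nearest other exceeded 0.829 of the group's range. This held for 17 of 210 such groups, where chance gives about 1 in 20. Among thin filament genes, Actc1 stood apart in perisynaptic SBMA replicate 1 at 15 weeks (253 CPM) and in extrasynaptic control replicate 3 at 26 weeks (248.96 CPM). Tmod1 stood apart in replicate 3 of SBMA at 15 weeks in both regions (265 CPM perisynaptic and 279 CPM extrasynaptic) and in extrasynaptic control replicate 2 at 26 weeks (230.1 CPM). Lmod3 stood apart in that same perisynaptic SBMA replicate 3 at 15 weeks (278 CPM) and in extrasynaptic control replicate 1 at 26 weeks (349.6 CPM). Lmod2 did so in perisynaptic control replicate 4 at 26 weeks (509.9 CPM), and Capzb in extrasynaptic SBMA replicate 1 at 26 weeks (247 CPM).

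Among thick filament and M-band genes, Mybpc1 stood apart in perisynaptic SBMA replicate 3 at 15 weeks (3309 CPM), Mybph in extrasynaptic SBMA replicate 4 at 26 weeks (10.98 CPM), Myom2 in extrasynaptic control replicate 2 at 26 weeks (439 CPM) and Obsl1 in extrasynaptic SBMA replicate 1 at 26 weeks (61.0 CPM). Among Z-disc and Xin genes, Myoz3 (19.7 CPM) stood apart in perisynaptic SBMA replicate 3 and Ldb3 (1369 CPM) in replicate 2 at 15 weeks. Csrp3 (148 CPM) and Xirp1 (946 CPM) both stood apart in perisynaptic SBMA replicate 1 at 26 weeks.

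The difference between genotypes differed between ages, by edgeR's test of that difference, for Tmod1 in perisynaptic (0.69) and extrasynaptic muscle (0.65, both log2). It did so for Tmod4 too (-1.07 in perisynaptic and -1.09 in extrasynaptic muscle). In extrasynaptic muscle it also did so for Myot (-0.47) and Myoz1 (-0.615).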

How the results depend on the processing

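All values here are numbers of members called among the 35. At 15 weeks in perisynaptic muscle, in place of 0, DESeq2 and the length index as a covariate each called 4, and the block of runs of animal numbers and the fit of only the 2 groups each called 1. At 26 weeks in perisynaptic muscle, in place of 9, total-count scaling called 15, the block of runs 14 and the length index 21. In extrasynaptic muscle at 26 weeks the counts stayed within 1.5 times of 20, at 21 with total-count scaling, 18 with the length index and 14 without the animals numbered 79 to 82. At 15 weeks there, in place of 5, the block of runs called 3. In the test of genotype by age, in place of 2 in perisynaptic muscle, the fit with no filter and the fit without those animals each called 1. In extrasynaptic muscle, in place of 4, DESeq2 called 9, no filter 7 and the fit without those animals 1. For 26 against 15 weeks in control animals DESeq2 called 1 in each region, and the fit with no filter 1 in extrasynaptic muscle. For genotype by region the fit with no filter called 1 at 15 and 2 at 26 weeks. Between regions in SBMA animals, in place of 3, DESeq2 called 6, no filter 10, and the length index and the fit without the animal term 0 each. In control animals, in place of 2, DESeq2 called 4, RLE factors 1, no filter 9, and the length index and the fit without the animal term 0 each. The cause of these changes was not tested.

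Leaving out each animal gave 9 to 16 calls in perisynaptic muscle at 26 weeks, the highest without control replicate 2. In extrasynaptic muscle it gave 16 to 21 at 26 weeks and 2 to 5 at 15 weeks. For genotype by age it gave 1 to 2 in perisynaptic and 2 to 6 in extrasynaptic muscle. For the regions it gave 0 to 8 in SBMA and 0 to 2 in control animals. The other comparisons gave 0 throughout.

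At 26 weeks same-numbered SBMA and control animals deviated together in 3 of 4 pairs in each region (correlations 0.304 to 0.398 in perisynaptic and 0.129 to 0.175 in extrasynaptic muscle) and not in 1 (0.053 and 0.005), and at 15 weeks no pair exceeded 0.015. With the replicate block within age, 11 members were called in perisynaptic and 19 in extrasynaptic muscle at 26 weeks, and 0 in extrasynaptic muscle at 15 weeks and in both tests of genotype by age, where Tmod1 and Tmod4 were no longer called. No direction of a called member was reversed by any alternative run. Of the values of single members under the alternatives, 6367 kept their side of the threshold, 142 came to pass it and 141 no longer passed it. Depth was 16280873 to 34694446 counts per library, and Mybph, at a few CPM, is the member it limits most.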
